A study of Homo sapiens with 26 samples.

Results

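A gene desert is a long stretch of a chromosome with no protein-coding gene. The peaks described here are the 13760 FOXA1 peaks whose midpoint lay 200 kb or more from the body of every protein-coding gene, out of 153247 FOXA1 peaks on chromosomes 1 to 22 and 155652 in the whole list. They were chosen by position alone, in the GENCODE 44 annotation lifted to GRCh37, and no measured value entered the choice. HALO-tagged proteins were mapped by ChIP-seq in the established cell line BJ, fibroblasts of human foreskin, with an antibody to the tag, after 48 hours of ectopic expression of FOXA1, of its variants FOXA1dbd, FOXA1nhaa or FOXA1rraa, or of HNF4A. Each of these 5 constructs has 2 ChIP and 2 input libraries among the 26 labelled samples, but 1 peak list, and a down-sampled FOXA1 list brings the lists to 6. The H2B samples were not analysed here. The labels do not say what the dbd, nhaa and rraa changes are, and all constructs share the same cell line, tag and antibody. The lists hold no expression values, so the identity of the cells could not be checked against marker genes.

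FOXA1 is a forkhead transcription factor, a winged-helix protein that binds short A- and T-rich sequences and is known as a pioneer factor because it can bind its sites on nucleosomal DNA in closed chromatin. HNF4A is a nuclear receptor that works beside FOXA1 in liver and gut, and neither factor belongs to the normal programme of fibroblasts. Gene deserts are rich in A and T, hold many long non-coding RNA genes and, around developmental genes, contain enhancers that act over long distances. AP-1, a dimer of FOS and JUN proteins, is a major enhancer-binding factor of fibroblasts.

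Each construct has a single list, which leaves no replicate error to compute and no basis for a p-value. The 95% intervals cover counting error over peaks or bases only, and neighbouring peaks are not independent. The lists also share rows. Of the 6327 FOXA1rraa peaks in deserts, 2117 have the coordinates and peak name of a FOXA1 peak, 3376 those of a FOXA1nhaa peak, and the remaining 834 overlapped no FOXA1 peak at all. Every overlap of a desert FOXA1 peak by FOXA1rraa therefore came from a row that is also a row of the FOXA1 or the FOXA1nhaa list. Of the 3063 FOXA1dbd peaks in deserts, 382 (12.5%) have the exact coordinates of a FOXA1 peak. The main results on FOXA1rraa and FOXA1dbd overlap are therefore also given without the rows that are FOXA1 rows, and the other values include them. These FOXA1 rows are called the shared rows below. The FOXA1rraa overlaps left without them all came from FOXA1nhaa rows, so they are not a separate set of FOXA1rraa peaks. The score is the authors' own value for a peak and is used only to describe and rank peaks within a list.

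The sequences below are examples of desert FOXA1 peaks that peaks of other lists overlap, each picked for holding a motif. Each is the highest-scoring desert peak of its class that was 150 to 300 bp wide and held a forkhead core (TGTTTAC or TATTTAC, on either strand). Capitals mark the core, and each sequence is the plus strand of GRCh37. The last sequence was chosen after its values were seen, as the highest-scoring desert peak of that width overlapped by FOXA1dbd with an AP-1 site (TGANTCA), and its capitals mark that site. Of all desert peaks, 66.5% had neither a forkhead core nor an AP-1 site in the central 200 bp, so these examples are not typical.
Overlapped by all 3 FOXA1 variants, score 427, chr7:85082470-85082756: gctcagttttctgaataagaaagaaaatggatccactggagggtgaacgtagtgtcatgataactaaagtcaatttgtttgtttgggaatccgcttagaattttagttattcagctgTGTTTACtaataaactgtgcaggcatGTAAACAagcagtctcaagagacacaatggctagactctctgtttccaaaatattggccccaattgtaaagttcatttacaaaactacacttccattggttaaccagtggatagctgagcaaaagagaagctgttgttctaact
Overlapped by FOXA1dbd only, score 225, chr13:84954390-84954656: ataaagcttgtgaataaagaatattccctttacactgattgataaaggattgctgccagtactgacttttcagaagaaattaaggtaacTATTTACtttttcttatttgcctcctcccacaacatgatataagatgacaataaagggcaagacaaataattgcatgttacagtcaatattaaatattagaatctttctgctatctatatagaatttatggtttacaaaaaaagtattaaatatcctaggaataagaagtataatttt
Overlapped by FOXA1nhaa only, score 248, chr6:142057535-142057828: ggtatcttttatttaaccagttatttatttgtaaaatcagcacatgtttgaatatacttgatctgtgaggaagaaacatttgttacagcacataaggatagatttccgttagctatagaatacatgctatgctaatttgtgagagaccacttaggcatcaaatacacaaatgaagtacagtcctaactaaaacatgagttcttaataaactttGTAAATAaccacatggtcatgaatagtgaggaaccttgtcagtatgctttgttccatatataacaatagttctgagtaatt
Overlapped by FOXA1rraa only, score 363, chr6:79185735-79185923: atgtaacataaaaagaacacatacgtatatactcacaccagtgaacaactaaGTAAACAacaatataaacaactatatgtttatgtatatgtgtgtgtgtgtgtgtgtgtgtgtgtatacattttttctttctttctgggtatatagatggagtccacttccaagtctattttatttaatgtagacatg
Overlapped by HNF4A, score 136, chr16:51914708-51915000: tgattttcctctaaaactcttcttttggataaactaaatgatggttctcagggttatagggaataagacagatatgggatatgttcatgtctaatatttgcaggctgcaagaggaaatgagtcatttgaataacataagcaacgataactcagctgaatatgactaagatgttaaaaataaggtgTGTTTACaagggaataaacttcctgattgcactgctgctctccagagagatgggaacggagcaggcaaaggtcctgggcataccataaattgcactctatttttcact
AP-1 site and FOXA1dbd overlap, score 268, chr5:88585788-88586073: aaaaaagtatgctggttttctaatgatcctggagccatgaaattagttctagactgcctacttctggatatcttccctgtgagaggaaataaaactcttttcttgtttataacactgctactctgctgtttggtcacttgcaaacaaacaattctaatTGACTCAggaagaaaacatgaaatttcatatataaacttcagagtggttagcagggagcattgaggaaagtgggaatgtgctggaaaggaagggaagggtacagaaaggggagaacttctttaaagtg
The first of these lies in the non-coding gene LINC00972, 266 kb from SEMA3D, which encodes a secreted guidance protein, and its 2 cores are TGTTTAC and GTAAACA. The FOXA1dbd peak lies 498 kb from SLITRK1, the FOXA1nhaa peak 322 kb from NMBR in no annotated gene, and the FOXA1rraa peak 391 kb from IRAK1BP1 in no annotated gene. That FOXA1rraa row is the FOXA1 row itself, as is the one beside the HNF4A overlap, 234 kb from HNRNPA1L3. The sequence with the HNF4A overlap also holds an AP-1 site (tgagtca), left in small letters. The last peak, with its AP-1 site in capitals, lies within the antisense gene MEF2C-AS1, 386 kb from MEF2C, a MADS-box transcription factor gene. The GC content of the printed peaks ran from 27.7% in the peak with FOXA1dbd only to 38.5% in the last peak.

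FOXA1 bound in gene deserts, but more sparsely than elsewhere. Deserts made up 507 Mb of the 2685 Mb of called autosomal sequence (18.9%) and held 8.98% of the FOXA1 peaks (Wilson interval 8.84% to 9.12%). That is 27.1 peaks per Mb in deserts against 64.1 per Mb outside them, a ratio of 0.424 (exact interval 0.416 to 0.431), or 2.36-fold lower. The ratio was below 1 on 22 of 22 chromosomes, from 0.102 on chromosome 22, which has 10 desert peaks, to 0.738 on chromosome 21, which has 377. Density went down step by step with distance from genes. It was 81.2 FOXA1 peaks per Mb inside gene bodies, 43.8 within 50 kb of a gene and 37.2 between 50 and 200 kb. Inside deserts it was 33.4 at 200 to 300 kb, 28.6 at 300 to 500 kb, 23.8 at 500 kb to 1 Mb and 19.9 at 1 Mb or more. At the limit that defines a desert, the 489 FOXA1 peaks within 10 kb inside the 200 kb limit had a median score of 120, and the 566 within 10 kb outside it had 109. The nearest peak inside lay 200143 bp from HRH4 with a score of 73, and the nearest outside lay 199974 bp from USP25 with a score of 331.

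The other lists thinned out in deserts to different degrees. Of the peaks of each list, 10.7% of FOXA1dbd (10.32% to 11.03%), 9.90% of FOXA1nhaa (9.72% to 10.1%) and 8.98% of FOXA1rraa peaks (8.77% to 9.20%) lay in deserts, and 8.84% of FOXA1rraa peaks did without the rows shared with FOXA1. The share was 2.83% for HNF4A (2.67% to 3.0%). HNF4A peaks were 8.0-fold less dense in deserts than outside (2.11 against 16.9 per Mb), FOXA1dbd peaks 1.95-fold (6.04 against 11.8) and FOXA1nhaa peaks 2.12-fold (20.5 against 43.3). HNF4A density was 19.7 per Mb in gene bodies and 0.636 at 1 Mb or more from a gene, while FOXA1dbd went from 14.2 to 4.33. FOXA1dbd peaks were thus less dense than HNF4A peaks inside genes and denser in deserts.

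**Figure D1:**
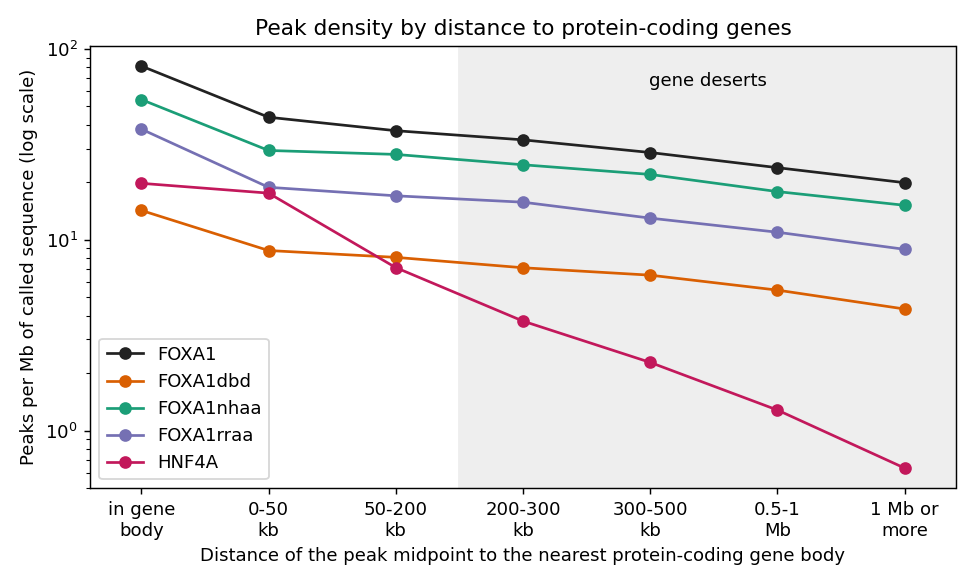
Peaks per Mb of called sequence (y axis, log scale) for each list by distance of the peak midpoint to the nearest protein-coding gene body (x axis), with deserts shaded; each point is 1 list in 1 distance range. The FOXA1 line goes from 81.2 to 19.9 per Mb and the HNF4A line from 19.7 to 0.636 per Mb.

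Deserts were very unequal. FOXA1 peaks were found in 535 of the 791 deserts with called sequence. Among the 325 deserts with 500 kb or more of called sequence, 79 held no FOXA1 peak, the quartiles were 0.541, 9.43 and 49.3 peaks per Mb, and the highest density was 147.5. In 59 of the 325 (18.2%) FOXA1 density was above the 64.1 per Mb found outside deserts. These 59 deserts, on 17 chromosomes, held 5733 peaks, or 41.7% of all desert peaks, in 59.9 Mb, at 95.8 per Mb. The 79 deserts without a FOXA1 peak covered 84.1 Mb and lay on all 22 chromosomes. The median GC content was 36.6% in the dense deserts and 36.7% in the empty ones.

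Deserts without FOXA1 peaks held few peaks of the other lists, but they were picked for having no FOXA1 peak. In deserts, 89.9% of FOXA1dbd peaks and 82.0% of FOXA1rraa peaks overlapped a FOXA1 peak. The low counts of these lists were thus largely set by that choice. The 79 deserts held 113 FOXA1nhaa peaks (1.34 per Mb against 63.5 in the 59 dense deserts), 75 FOXA1dbd peaks (0.891 against 19.8), 5 FOXA1rraa peaks (0.0594 against 44.3) and 3 HNF4A peaks (0.0357 against 6.11). No FOXA1dbd peak was found in 32 of them, no FOXA1nhaa peak in 27 and no HNF4A peak in 77. FOXA1dbd peaks that overlapped no FOXA1 peak numbered 309 in the 507 Mb of all deserts, beside the 75 FOXA1dbd peaks in these 84.1 Mb. Over the 325 deserts, Spearman's rank correlation between FOXA1 density and that of another list was 0.884 with FOXA1dbd peaks, 0.960 with FOXA1nhaa, 0.968 with FOXA1rraa and 0.711 with HNF4A peaks. Each point is the same stretch of sequence in both lists, and the FOXA1rraa and FOXA1dbd lists share rows with FOXA1. With FOXA1nhaa peaks that overlapped no FOXA1 peak, the correlation was 0.918, and with HNF4A peaks that overlapped none it was 0.679. With the FOXA1dbd peaks that overlapped no FOXA1 peak it was -0.176.

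**Figure D2:**
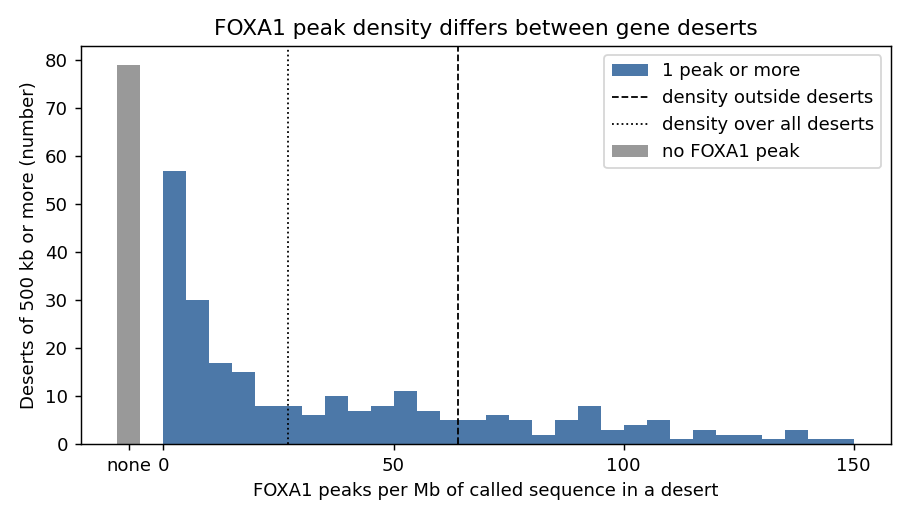
Number of deserts (y axis) by FOXA1 peaks per Mb of called sequence (x axis, 5 per Mb bins) for the 325 deserts with 500 kb or more of called sequence; the grey bar holds the 79 deserts without a peak, the dotted line is the density over all deserts (27.1) and the dashed line the density outside deserts (64.1). The 59 deserts to the right of the dashed line reach 147.5 per Mb.

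The desert with most FOXA1 peaks lies on chromosome 6 at 139895785 to 142179467, between CITED2, which encodes a transcriptional co-regulator, and NMBR, the neuromedin B receptor gene. It held 297 peaks at 130.1 per Mb. FOXA1nhaa overlapped 125 of the 297 (42.1%), FOXA1rraa 134 (45.1%), FOXA1dbd 60 (20.2%) and HNF4A 3. Without the rows shared with FOXA1 the FOXA1rraa count was 89 and the FOXA1dbd count 52. Over all desert peaks FOXA1nhaa overlapped 36.8%, FOXA1rraa 37.7%, FOXA1dbd 19.4% and HNF4A 1.05%. Next came the desert between ZEB2, a zinc-finger repressor gene, and ACVR2A, an activin receptor gene, on chromosome 2 at 145478624 to 148402086, with 271 peaks at 92.7 per Mb. The desert between ADAMTS5, which encodes an aggrecan-cleaving protease, and N6AMT1 on chromosome 21 at 28539407 to 30044513 held 215 peaks at 142.8 per Mb. FOXA1dbd overlapped 24.7% of these 215 (21.9% without the rows shared with FOXA1) and FOXA1nhaa 45.6%. The deserts between CDC73 and KCNT2 on chromosome 1 (193423945 to 195994909) and between SEL1L and FLRT2 on chromosome 14 (82200197 to 85796488) held 189 and 188 peaks. The densest deserts of 500 kb or more were those between MDFIC and TFEC on chromosome 7 at 114859971 to 115375202, with 76 peaks at 147.5 per Mb, between ADAMTS5 and N6AMT1, and between DSEL and TMX3 on chromosome 18 at 65383957 to 66140925, with 104 peaks at 137.4 per Mb. The 10 deserts with most peaks held 14.4% of desert peaks in 4.43% of desert sequence.

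The longest desert without a FOXA1 peak lies between OLFM4, which encodes a secreted glycoprotein of gut epithelium, and PRR20A on chromosome 13 at 53826192 to 57515052. Its 3.69 Mb of called sequence held 5 FOXA1nhaa peaks, 3 FOXA1dbd peaks and none of FOXA1rraa or HNF4A. Next was the desert between LINGO2 and ACO1 on chromosome 9 at 29413599 to 32184601, with 2.77 Mb, 2 FOXA1nhaa peaks and 1 FOXA1dbd peak. The desert between ZNF716 and ZNF722 on chromosome 7, at 57733265 to 63259227, was also empty, but only 2.33 of its 5.53 Mb are called. Large assembly gaps touched few desert peaks: 204 (1.48%) lay within 1 Mb of a run of 100 kb or more unknown bases.

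Most desert FOXA1 peaks had another FOXA1 peak nearby. Their median distance to the nearest other FOXA1 peak was 3.59 kb (quartiles 1.29 and 8.53 kb), and outside deserts the median was 2.64 kb. The densities differ, and even spacing over called sequence would put peaks 36.8 kb apart in deserts and 15.6 kb apart outside. Peaks placed at random would lie closer to their nearest neighbour than even spacing, and random placement was not tested. Another FOXA1 peak lay within 10 kb of 78.9% of desert peaks and of 84.3% of the others. Some rows are pieces of a single peak, and with those joined the desert median was 4.05 kb and 77.4% had a neighbour within 10 kb. Desert peaks joined at gaps of up to 10 kb made 5928 runs, of which 2950 were single peaks, and the 662 runs of 5 or more peaks held 34.2% of desert peaks. With gaps of up to 20 kb, 890 such runs held 68.9%. The largest run at 10 kb, picked out after its values were seen, has 24 peaks over 85.9 kb on chromosome 15 at 39410525 to 39496456, 377 kb from THBS1, which encodes the matrix protein thrombospondin. FOXA1dbd overlapped 4 of its peaks, FOXA1nhaa 10, FOXA1rraa 8 and HNF4A 1. At 20 kb the largest run was another.

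The FOXA1 variants overlapped desert FOXA1 peaks at rates near those outside deserts, and HNF4A overlapped fewer of them than outside. FOXA1dbd overlapped 2666 of 13760 (19.4%), where 17.5% of all autosomal FOXA1 peaks were overlapped. FOXA1nhaa overlapped 5061 (36.8%, against 40.1% of all), FOXA1rraa 5183 (37.7%, against 40.1% of all) and HNF4A 144 (1.05%, against 1.70% of all). All 3 FOXA1 variants overlapped 1135 desert peaks (8.25%, against 8.32% of all), and none of them overlapped 5898 (42.9%, against 41.1% of all). At those 1135 peaks the FOXA1rraa rows are also FOXA1nhaa rows. Set against the 139487 FOXA1 peaks outside deserts, the FOXA1dbd share was 2.05 percentage points higher in deserts (Newcombe interval 1.37 to 2.75, 19.4% against 17.3%). The FOXA1nhaa share was lower, with a difference of -3.64 points (-4.49 to -2.79, 36.8% against 40.4%), as was the FOXA1rraa share, at -2.68 points (-3.52 to -1.83, 37.7% against 40.3%). The HNF4A share differed by -0.714 points (-0.886 to -0.518, 1.05% against 1.76%). The direction held on 20 of 22 chromosomes for FOXA1dbd and HNF4A, 19 for FOXA1nhaa and 18 for FOXA1rraa. Without the FOXA1dbd rows that have FOXA1 coordinates, the FOXA1dbd difference was 1.11 points (0.464 to 1.77). Without the FOXA1rraa rows shared with FOXA1, 3066 desert peaks (22.3%, against 25.2% of all) were overlapped, a difference of -3.22 points, and each of those 3066 was also overlapped by FOXA1nhaa. With other peaks weighted to the scores of desert peaks, the differences were 2.96 points for FOXA1dbd, -2.12 for FOXA1nhaa and -0.535 for FOXA1rraa. With deserts drawn 200 kb from every annotated gene of any type, which leaves 0.310% of FOXA1 peaks, the FOXA1dbd difference turned to -3.84 points (-6.64 to -0.449), and the FOXA1rraa difference, at -1.79 (-6.06 to 2.66), was within counting error.

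For FOXA1nhaa and FOXA1rraa the lower share in deserts was a contrast with peaks inside gene bodies. For none of the 3 FOXA1 variants was the difference beyond counting error against peaks 50 to 200 kb from a gene. The 101344 FOXA1 peaks in gene bodies were overlapped by FOXA1dbd in 16.6%, by FOXA1nhaa in 42.3% and by FOXA1rraa in 41.7%. The 23309 peaks within 50 kb of a gene gave 18.7%, 34.9% and 36.1%. The FOXA1nhaa and FOXA1rraa shares there were below those of desert peaks. The 14834 peaks 50 to 200 kb from a gene gave 19.9%, 36.4% and 37.7%. Against the latter, desert peaks differed by -0.518 points for FOXA1dbd (-1.44 to 0.404), 0.357 points for FOXA1nhaa (-0.760 to 1.48) and -0.00981 points for FOXA1rraa (-1.13 to 1.11). Without the shared rows these differences were -0.515 points for FOXA1dbd (-1.38 to 0.355) and -0.113 for FOXA1rraa (-1.08 to 0.854). Within deserts the shares were also flat with distance: at 200 to 300 kb and at 1 Mb or more, FOXA1nhaa overlapped 36.4% (34.9% to 37.8%) and 35.8% (33.2% to 38.4%) of FOXA1 peaks. HNF4A was the exception. It overlapped 1.88% of peaks 50 to 200 kb from a gene, 0.834 points more than in deserts (difference -0.834, interval -1.11 to -0.558), and within deserts 1.23% at 200 to 300 kb (0.937% to 1.61%) and 0.520% at 1 Mb or more (0.252% to 1.07%).

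**Figure D3:**
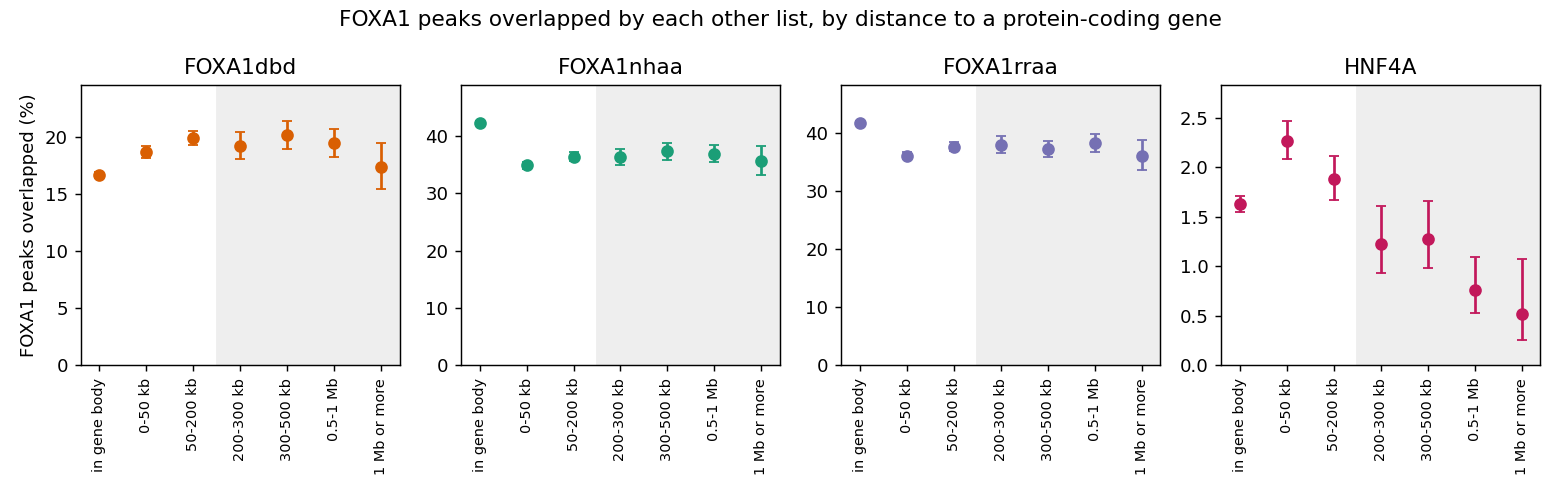
Share of FOXA1 peaks overlapped by each other list (y axis, percent, a separate scale in each panel) by distance to the nearest protein-coding gene body (x axis), with deserts shaded and 95% Wilson intervals as bars. Beyond the gene bodies the FOXA1dbd, FOXA1nhaa and FOXA1rraa shares stay between 17.3% and 20.1%, 34.9% and 37.3%, and 36.1% and 38.4%, while the HNF4A share goes from 2.265% within 50 kb to 0.520% at 1 Mb or more.

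Seen from the other lists, desert peaks lay on FOXA1 peaks less often than peaks elsewhere, except for HNF4A. Of FOXA1nhaa peaks in deserts, 49.0% overlapped a FOXA1 peak, against 59.5% outside (difference -10.6 points, -11.6 to -9.55). For FOXA1dbd it was 89.9% against 96.9% (-7.03, -8.16 to -5.99). For HNF4A it was 143 of 1071 desert peaks (13.4%) against 6.62% (difference 6.73, 4.81 to 8.91). FOXA1nhaa with FOXA1rraa was the most common pair, with 1931 desert peaks (14.0%, against 17.2% outside). At these peaks the FOXA1rraa rows are also FOXA1nhaa rows, so the pair counts shared rows and not separate peak calls. FOXA1dbd alone overlapped 684 (4.97%, against 3.81%). Single deserts hold few peaks, so their shares carry wide intervals. Over the 85 deserts with 50 or more FOXA1 peaks, FOXA1dbd overlapped from 7.14% (4 of 56, CELF4 to PIK3C3, interval 2.81% to 17.0%) to 36.8% (25 of 68, RASGRP1 to THBS1, interval 26.3% to 48.6%), with a median of 19.4%. FOXA1nhaa went from 20.7% (12 of 58, ZPLD1 to ALCAM, interval 12.3% to 32.8%) to 58% (29 of 50, IGFBP7 to ADGRL3, interval 44.2% to 70.6%), with a median of 37.6%. How far counting error alone would spread the lowest and highest of 85 deserts was not tested.

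Desert peaks had slightly lower scores than others. The median score was 116 (interval 115 to 117) against 126, and a desert peak had the higher score in a pair with probability 0.466 (Hanley-McNeil interval 0.461 to 0.471). With deserts drawn 200 kb from every annotated gene the difference in medians was -9 (-19 to 2), within counting error. The highest scores were 962 in deserts and 1518 outside, and 119 desert peaks (0.865%) reached 500. Median width was 293 bp against 302 bp, and 199 desert peaks (1.45%) were narrower than 50 bp. Desert peaks overlapped by a variant scored higher than those that were not, with medians of 151 against 109 for FOXA1dbd, 149 against 101 for FOXA1nhaa and 161 against 98 for FOXA1rraa. Without the shared rows they were 163 against 109 for FOXA1dbd and 184 against 104 for FOXA1rraa. The FOXA1rraa rows left in that comparison are all FOXA1nhaa rows. In the highest of 5 equal score groups of FOXA1 peaks, FOXA1nhaa overlapped 61.8% of desert peaks and 63.2% of the others, and in the lowest 22.2% and 26.0%. In all 5 score groups the FOXA1dbd share was higher in deserts, by 2.42 to 3.36 points. The FOXA1nhaa difference was beyond counting error only in the lowest score group, and the FOXA1rraa difference only in the middle one. In 5 equal groups by width, from narrow to wide, the FOXA1nhaa difference was beyond counting error in all but group 3. The FOXA1rraa difference was so in groups 3 to 5, and the FOXA1dbd difference was within counting error in groups 3 and 4. The down-sampled list kept 25.2% of desert peaks (against 24.6% of all).

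Of the 5 highest-scoring desert peaks, 4 were overlapped by all 3 FOXA1 variants. A peak on chromosome 12 at 58577411 to 58578164, 225 kb from ATP23, and a peak on chromosome 2 at 221238334 to 221239196, 732 kb from SLC4A3 in a non-coding gene and 1044 kb from the ephrin receptor gene EPHA4, both scored 962. A peak on chromosome 18 at 53868890 to 53869479, 395 kb from TXNL1 and 537 kb from TCF4, scored 890. A peak on chromosome 5 at 117356457 to 117357041, 815 kb from DTWD2, scored 765. These 4 peaks overlapped FOXA1dbd, FOXA1nhaa and FOXA1rraa peaks, and no HNF4A peak. At each of them the FOXA1rraa row is also a FOXA1nhaa row. The remaining one, on chromosome 4 at 34067364 to 34067866, 1882 kb from ARAP2, scored 820 and was overlapped only by FOXA1rraa, whose row there is the FOXA1 row. None of these 5 had a forkhead core in its central 200 bp, and 2 of them, on chromosomes 2 and 5, had an AP-1 site there. Of all desert peaks, 17.9% had a forkhead core there and 18.4% an AP-1 site. Counts out of 5 peaks are too few to set against these shares. The highest-scoring desert peak that no variant overlapped scored 536 and lies on chromosome 4 at 157169368 to 157170022, 295 kb from CTSO and 512 kb from PDGFC, a platelet-derived growth factor gene. The highest with FOXA1dbd alone scored 616 and lies on chromosome 21 at 17818546 to 17819140 within the non-coding gene MIR99AHG. The highest with FOXA1nhaa alone, on chromosome 6 at 9129446 to 9129540, scored 666 but was only 95 bp wide. The highest with HNF4A, on chromosome 8 at 79933271 to 79934535 and 216 kb from IL7, scored 541 and was overlapped by all 4 other lists. The desert peak farthest from a protein-coding gene lies on chromosome 4 at 33574178 to 33574395, 2376 kb from ARAP2, scored 83 and was overlapped by FOXA1nhaa and FOXA1rraa.

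Desert peaks carried the forkhead core about as often as other FOXA1 peaks, and AP-1 sites more often. In the central 200 bp, 17.9% of desert peaks (17.3% to 18.6%) had a forkhead core, where 18.2% of all autosomal FOXA1 peaks did, and the difference from other peaks was -0.286 points (-0.950 to 0.395). Within deserts the share was 18.0% at 200 to 300 kb, 17.2% at 300 to 500 kb (16.1% to 18.3%) and 17.6% at 500 kb to 1 Mb. At 1 Mb or more it was higher, at 21.3% (19.2% to 23.5%). Of all 2534720 windows of 200 bp without unknown bases in deserts, 8.78% had a core, and 11.2% did when the windows were weighted to the GC content of the peaks. The cores read backwards (CATTTGT or CATTTAT), a control for base composition, were in 20.1% of desert peaks and in 18.6% of windows of the same GC content. Desert peaks thus had the forkhead core 1.60-fold as often as windows of the same GC content, and the reversed core 1.08-fold. The 2 reversed words differed: the ratio was 1.27 for CATTTGT, beside 1.66 for TGTTTAC, and 0.994 for CATTTAT, beside 1.64 for TATTTAC. Cores were most frequent at the peak midpoint, with a mean of 23.9 per 1000 desert peaks in the 20 bp bins beside it and 11.3 per 1000 at 450 bp or more from it. Elsewhere these values were 23.6 and 9.30. Median GC content of the central 200 bp was 32.0% in desert peaks and 32.5% in the others, while the mean over all windows was 37.3% in deserts and 41.9% outside. A CpG was present in 48.2% of desert peaks and 53.3% of the others.

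The AP-1 site TGANTCA was in 18.4% of desert peaks (17.71% to 19.01%), where 14.9% of all autosomal FOXA1 peaks had it, against 14.6% of peaks outside deserts (difference 3.75 points, 3.08 to 4.43). In desert windows of the same GC content it was in 6.75%, so desert peaks had it 2.72-fold as often. The contrast was with peaks inside and near genes. The AP-1 site was in 13.6% of peaks in gene bodies, 16.6% within 50 kb of a gene and 18.4% at 50 to 200 kb. Desert peaks differed from the last by -0.0601 points (-0.958 to 0.839). With deserts drawn 200 kb from every annotated gene the difference from other peaks was 0.642 points (-2.35 to 4.18). TEAD (ACATTCC) and RUNX (TGTGGTT) cores were in 5.09% and 4.97% of desert peaks and in 2.97% and 4.01% of windows of the same GC content, and the intervals of both differences from other peaks included 0. The HNF4 core CAAAGTCCA was in 0.174% of desert peaks and 0.271% of the others (difference -0.0966 points, -0.161 to -0.00771), and in 0.203% of desert windows of the same GC content. The nuclear receptor core AGGTCA was in 6.12% of desert peaks and in 7.36% of such windows. All motifs were searched on both strands, and TGANTCA reads the same on both. A match is a description of the letters only.

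**Figure D4:**
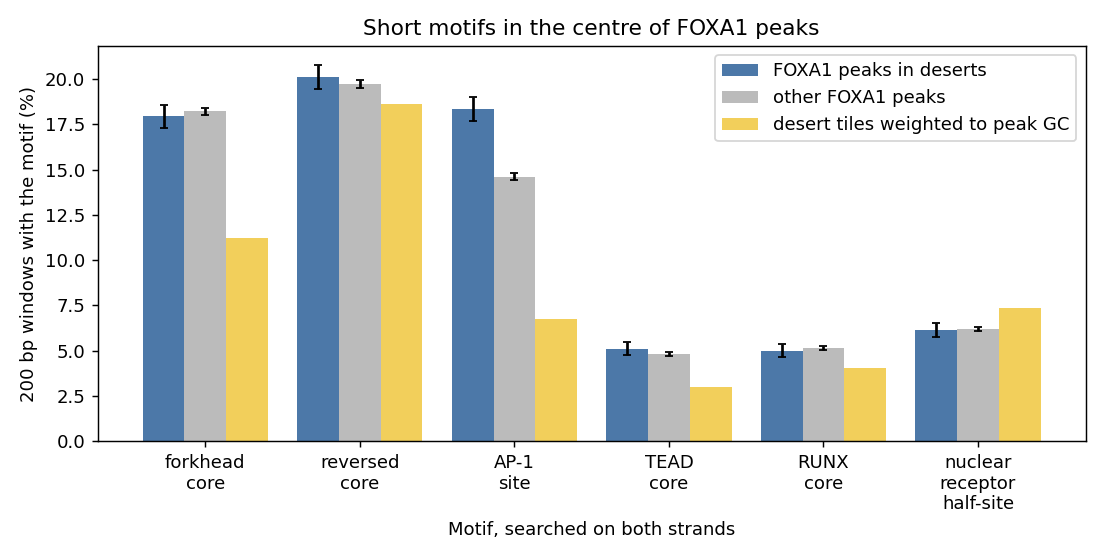
Share of 200 bp windows with each motif (y axis, percent) in the centre of desert FOXA1 peaks, of other FOXA1 peaks and in all desert windows weighted to the GC content of the desert peaks; bars on peaks are 95% Wilson intervals. The AP-1 site is at 18.4%, 14.6% and 6.75%, and the forkhead core at 17.9%, 18.2% and 11.2%.

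**Figure D5:**
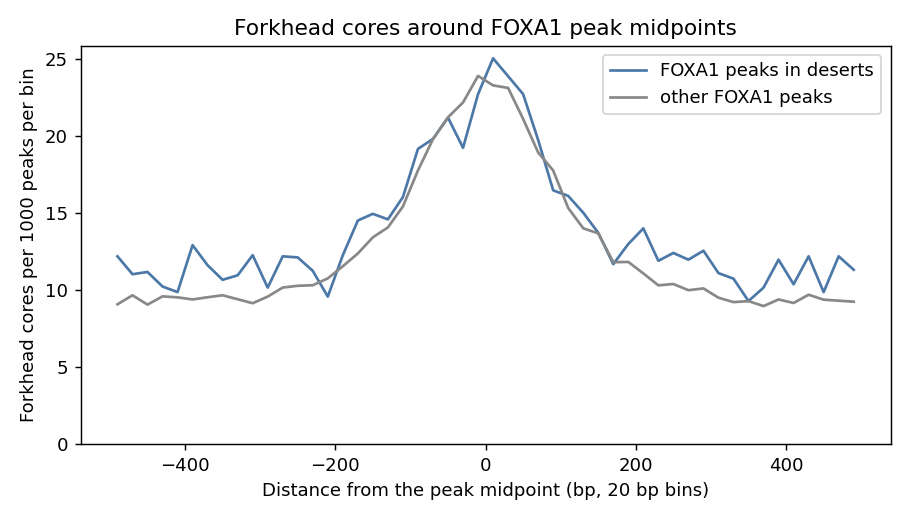
Forkhead cores per 1000 peaks in 20 bp bins (y axis) by distance from the peak midpoint (x axis, bp) for desert and other FOXA1 peaks. Both lines peak at the midpoint, at a mean of 23.9 and 23.6 per 1000 in the bins beside it, and the desert line is the higher away from it (11.3 against 9.30).

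The AP-1 site also went with overlap by the other lists. Among desert FOXA1 peaks, 27.2% of those overlapped by FOXA1dbd had an AP-1 site against 16.2% of the rest (difference 10.97 points, 9.17 to 12.8). The same difference was 4.82 points for FOXA1nhaa (3.46 to 6.21), 2.81 for FOXA1rraa (1.47 to 4.18) and 19.4 for HNF4A (11.8 to 27.5), with 54 of 144 HNF4A-overlapped desert peaks (37.5%) holding the site. Without the rows shared with FOXA1 the FOXA1dbd difference was 10.5 points (8.57 to 12.5) and the FOXA1rraa difference 4.67 (3.07 to 6.33). The FOXA1rraa rows left are all FOXA1nhaa rows, here and for the forkhead core below. Outside deserts the FOXA1dbd difference was 11.7 points and the HNF4A difference 15.6 points. The forkhead core behaved otherwise: in deserts it was 2.88 points more frequent under FOXA1dbd overlap (1.23 to 4.59) and 3.45 under FOXA1rraa overlap (2.11 to 4.80), but -0.961 under FOXA1nhaa (-2.27 to 0.372) and -1.98 under HNF4A (-7.11 to 4.90). Without the shared rows the forkhead core difference was 3.17 points for FOXA1dbd (1.41 to 5.00) and 1.85 for FOXA1rraa (0.305 to 3.45). Of the 2146 desert peaks with an AP-1 site and no forkhead core, FOXA1dbd overlapped 28.7% (26.8% to 30.6%), and of the 2089 with a forkhead core and no AP-1 site 20.6% (18.9% to 22.4%). Of the 9146 with neither it overlapped 16.5%, and of the 379 with both 29.0%. Without the shared rows these shares were 24.4%, 18.0%, 14.1% and 25.3% in the same order. Their median scores were 115, 117, 116 and 124 in that order, and the median widths 281, 293, 296 and 289 bp.

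Desert FOXA1 peaks lay within long non-coding RNA genes in 42.2% of cases (41.3% to 43.0%), and such genes cover 32.9% of desert sequence. Only 1.90% lay within 1000 bp of the start of a non-coding gene (1.68% to 2.14%), and 1.83% of desert sequence does. No annotated gene of any kind held 56.9% of them. MIR99AHG, the host gene of a microRNA cluster on chromosome 21, held 89 desert peaks. CCDC26 on chromosome 8 and ENSG00000288714 on chromosome 6 held 82 each, ENSG00000223786 on chromosome 6 held 71 and LINC02240 on chromosome 5 held 64. FOXA1nhaa overlapped 42 of the 82 in ENSG00000288714 and 32 of the 89 in MIR99AHG, where 36.8% of all desert peaks were overlapped. FOXA1dbd overlapped 17 and 9 of them, where 19.4% of all desert peaks were. These genes were picked from those named, and no interval was computed for them.

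The protein-coding genes nearest to desert FOXA1 peaks numbered 837 of the 1384 that border desert sequence. The 10 with most peaks accounted for 1422 peaks (10.3%). They were FLRT2, an adhesion and guidance protein gene, with 199 peaks from 212 to 1991 kb away, SLITRK1, a neuronal transmembrane protein gene, with 193, ZEB2 with 158, NMBR with 153 and CITED2 with 144. SLIT2, which encodes a secreted guidance ligand, followed with 122, ADAMTS5 with 115, the atypical cadherin gene FAT4 with 114, ACVR2A with 113 and the calcium sensor gene STIM2 with 111. Per Mb of desert for which each is the nearest gene, ADAMTS5 had 152.7 peaks, NMBR 134.0 and SLIT2 133.3, and STIM2 had 67.4. FOXA1rraa overlapped 49.7% of the peaks nearest NMBR and 30.1% of those nearest ACVR2A, or 28.1% and 18.6% without the shared rows.

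Gene groups chosen by symbol differed in how dense FOXA1 peaks were in the desert sequence nearest to them. Peaks cluster by desert, so a few genes set each value, and the intervals cover counting only. Nuclear receptor genes had 186 desert peaks at 44.9 per Mb, 1.66 times the desert mean (1.43 to 1.92), of which 107 were nearest to NR2F1, an orphan receptor gene, at 116.3 per Mb, 52 to NR2F2 and 22 to NR5A2. Synaptic adhesion and axon guidance genes had 1008 peaks at 31.4 per Mb, a ratio of 1.17 (1.10 to 1.25), with 26 of 36 such genes having a peak. Homeobox, T-box and PAX genes were at 0.912 (0.794 to 1.04), and WNT, FGF, BMP and TGF-beta ligand genes at 1.01 (0.767 to 1.30). Cadherin and protocadherin genes were at 0.613 (0.557 to 0.673), although CDH11, a cadherin of mesenchymal cells, had 101 peaks at 60.3 per Mb. SOX genes were at 0.727 (0.555 to 0.934), with 50 of 61 peaks nearest to SOX9, and forkhead genes at 0.714 (0.520 to 0.956). Glutamate and GABA receptor genes were at 0.125 (0.0750 to 0.195), with 19 peaks in 5.56 Mb, and 12 of the 15 such genes that border desert sequence had none.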

How the data were processed

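The deposited lists give peak coordinates and, as the only value used, the authors' score per peak, per the file columns. The submitters' processing notes name Bowtie2 2.3.4.1, Picard, GATK 4.2.6.0, bedtools 2.27.1, MACS2 2.2.7.1, deepTools 3.5.0 and hg19, with no roles. Peak calling on single or pooled libraries is not given in the sources used here, and read depth is unknown. All peak ends lay within GRCh37 chromosome lengths.

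Computations used Python 3.11.15, numpy 2.4.6, pandas 2.3.3 and scipy 1.17.1. Rows with the same coordinates were counted as 1 peak. Deserts were the autosomal bases 200 kb or more from every protein-coding gene body, and densities used bases that are not unknown. Overlap meant 1 bp or more. Motifs were searched in the central 200 bp around the midpoint and set against all non-overlapping 200 bp windows, also weighted to peak GC content in 5% bins. Desert groups used 500 kb or more of called sequence. Named peaks, deserts and genes followed a fixed rule of rank by score, count or density, and members and lists were chosen with earlier results of these data known. The printed sequences were read from GRCh37 and include none of chromosome 8. The sequence of 1 overlap class named by the rule is not reported here. Code was checked on simulated data. Groups came from sample titles. The comparison with peaks 50 to 200 kb from a gene, the AP-1 comparison and the removal of FOXA1dbd rows with FOXA1 coordinates were added after the data were seen.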

Additional observations from a re-analysis of the deposited data

How the results depend on the processing

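Each result was recomputed with 1 choice changed at a time, giving 81 values, of which 45 stayed within the interval of the reported value. No paired analysis was possible because the lists carry no replicate number and each construct has 1 list, so no replicate could be left out either. The forkhead core difference stayed within its interval under every setting tried, and joining the rows of a peak moved no result. With a desert distance of 100 kb the share of FOXA1 peaks was 13.9%, the density ratio 0.443 and the HNF4A difference -0.398 points, and with 500 kb they were 3.36%, 0.376 and -1.03. With deserts 200 kb from every annotated gene of any type the share was 0.310%, the density ratio 0.376, and the differences were -3.84 (FOXA1dbd, the opposite sign), -6.01 (FOXA1nhaa), -1.79 (FOXA1rraa, interval -6.06 to 2.66), -1.28 (HNF4A) and 0.642 (AP-1 site, interval -2.35 to 4.18), with a median score difference of -9 (-19 to 2), so the FOXA1rraa, AP-1 and score differences were no longer beyond counting error. The top 50% of each list by score gave a share of 8.19%, a density ratio of 0.383, differences of -2.67 (FOXA1nhaa), -1.35 (FOXA1rraa) and -0.312 (HNF4A), and a median score difference of -8. Without peaks near assembly gaps the density ratio was 0.437. An overlap of 50% of the shorter peak gave -0.348 for HNF4A, and midpoints within 200 bp gave -2.47 (FOXA1nhaa), -1.67 (FOXA1rraa) and -0.464 (HNF4A). Weighting other peaks to the width of desert peaks gave -2.76 (FOXA1nhaa) and -1.59 (FOXA1rraa), and to their score 2.96 (FOXA1dbd), -2.12 (FOXA1nhaa) and -0.535 (FOXA1rraa). The central 100 bp gave an AP-1 difference of 2.001. Without FOXA1dbd rows with FOXA1 coordinates the FOXA1dbd difference was 1.11. Compared with peaks 50 to 200 kb from a gene, the differences were -0.518 (FOXA1dbd, the opposite sign), 0.357 (FOXA1nhaa, the opposite sign), -0.00981 (FOXA1rraa), -0.0601 (AP-1 site, the opposite sign) and -4 (median score). The cause of these shifts was not tested. Read depth is unknown, so no limit of detection can be given.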
